A study of Mus musculus with 9 samples.

Results

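The 10 apolipoprotein genes of the liver examined, *Apoa1*, *Apoa2*, *Apoa4*, *Apoa5*, *Apob*, *Apoc1*, *Apoc2*, *Apoc3*, *Apoe* and *Apom*, were chosen by name and matched to the gene symbols of the array's platform annotation. Of these 10 genes, 9 matched a transcript cluster, the set of probes for 1 gene, out of 22206 clusters in all, and each of the 9 had 1 cluster. *Apoc2* was not analysed here. The genes were chosen with earlier results of these data known. The large *Apoa4* difference between ob/ob and wild-type mice was among them, so that difference is given as a description and without a test. The p-values of the other genes should be read with that choice in mind.

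Gene expression in liver was profiled on Clariom S mouse arrays, 1 per liver sample. The 9 arrays form 3 groups of 3 male mice. C57BL/6JHamSlc-ob/ob mice, which lack functional leptin in the whole body and are obese, received by oral gavage an extract of *Vigna umbellata*, the rice bean, at 100 mg per kg body weight for 42 days. A second group of C57BL/6JHamSlc-ob/ob mice received vehicle for 42 days, and C57BL/6JHamSlc-+/+ mice, called wild type, also received vehicle for 42 days. All mice were obtained at 6 weeks of age, had 1 week of acclimatization before treatment and ate standard chow throughout. There was no wild-type group with extract, and the labels do not say what the vehicle was. The labels do not describe how the 3 mice of a group relate to each other, so each p-value measures the spread between these arrays only.

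Apolipoproteins are the protein coat of lipoproteins, the particles that carry triglyceride and cholesterol in blood. The hepatocyte builds very low density lipoprotein around apolipoprotein B and releases apolipoproteins A-I and A-II for high density lipoprotein (HDL). The exchangeable apolipoproteins move between particles and set how quickly lipoprotein lipase empties them and how hepatic receptors take up the remnants. In mice, hepatic *Apoa4* is known to rise with the triglyceride content of the liver.

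All values are log2 signals, as deposited. Array medians lay between 5.07 and 5.36. The 9 arrays have a ceiling: the maximum was 19.78 to 19.93, and 16 clusters were at it on all 9 arrays. Array 3 of the ob/ob vehicle group and array 3 of the wild-type group stood apart, correlating with their own groups at 0.948 to 0.952 and at 0.955. Results that rest on them are therefore also given without both. The 7 hepatocyte markers measured of 8 (*Alb*, *Ttr* and *Ahsg* the highest) averaged 17.16 to 17.59 on extract arrays, 17.27 to 17.33 on ob/ob vehicle arrays and 17.41 to 17.74 on wild-type arrays, but these 3 were at or near the ceiling and could show no change. The 5 adipocyte markers measured of 6, *Plin1*, *Retn*, *Adipoq*, *Tshr* and the leptin gene *Lep*, were on all 9 arrays below the upper end of the olfactory receptor clusters. That upper end is the level under which 97.5% of 1080 clusters for receptors silent in liver lay, 5.33 to 6.63 by array. It was highest on both arrays that stood apart, 6.44 on ob/ob vehicle array 3 and 6.63 on wild-type array 3. The interquartile ranges of these arrays, 3.26 and 3.01, were the lowest of the 9.

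The bases before the start sites of 3 genes are shown, *Apoa4* and *Apom*, which differed most between ob/ob and wild-type liver in opposite directions, and *Apoa1*, the near neighbour of *Apoa4*. Each is the 250 bases before the RefSeq start on build GRCm38.p6, 5′ to 3′ on the gene's strand, and capitals mark a match to CAAAGNNCA. These letters are a core of the DNA element bound by HNF4α, the hepatocyte nuclear receptor known to control many apolipoprotein genes. The windows are chr9:46240594-46240843 on the + strand for *Apoa4*, chr9:46228380-46228629 on the + strand for *Apoa1* and chr17:35131802-35132051 on the − strand for *Apom*.
Apoa4: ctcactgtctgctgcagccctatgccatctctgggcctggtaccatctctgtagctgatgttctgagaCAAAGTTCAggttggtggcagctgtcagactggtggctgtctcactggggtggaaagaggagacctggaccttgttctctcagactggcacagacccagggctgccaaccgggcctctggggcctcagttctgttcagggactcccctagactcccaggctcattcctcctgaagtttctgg
Apoa1: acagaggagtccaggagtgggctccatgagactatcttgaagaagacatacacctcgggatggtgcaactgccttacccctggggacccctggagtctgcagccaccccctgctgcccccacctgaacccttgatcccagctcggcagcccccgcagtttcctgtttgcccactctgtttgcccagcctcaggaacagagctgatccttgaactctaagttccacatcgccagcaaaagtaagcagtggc
Apom: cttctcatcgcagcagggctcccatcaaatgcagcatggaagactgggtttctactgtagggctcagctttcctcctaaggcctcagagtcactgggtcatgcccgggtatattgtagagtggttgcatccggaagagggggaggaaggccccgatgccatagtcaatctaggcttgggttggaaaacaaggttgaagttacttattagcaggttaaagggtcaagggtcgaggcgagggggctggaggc
The *Apoa4* window held 1 match to CAAAGNNCA, which began 182 bases before the start, and the windows of *Apoa1* and *Apom* held none on either strand. The *Apob* window, not shown, also held 1, on the other strand and 103 bases before the start. Of 32851 such windows in the RefSeq table, 5.49% held this motif on either strand. AGGTCA, the half-site shared by many nuclear receptors, was in 14% of windows and in none of these 3, and TATAAA, the TATA box, was in 12.4% and in none of these 3. The motifs can overlap each other. Entries existed for 8 of the 10 genes, and *Apoc1* and *Apoc3* had none. A match is a run of letters and not a measured binding site. Only exact matches to these letters were searched for, so a window without a match was not shown to lack a site.

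Obese and lean liver differed in *Apoa4* and *Apom*, in opposite directions. *Apoa4* was 8.30 log2 units higher in ob/ob vehicle than in wild-type liver, while *Apom* fell by 3.94. *Apoa1* was at least 2.72-fold lower and *Apoc3* 1.88-fold higher in ob/ob vehicle liver without passing the adjusted threshold. *Apob*, *Apoa5* and *Apoc1* had overlapping groups, and *Apoa2* and *Apoe* were at the ceiling throughout. With the extract, 0 of the other 7 genes passed limma's test against ob/ob vehicle, beside 0% of all clusters. The groups of these genes overlapped in that comparison, and *Apoa2* and *Apoe* could show no difference.

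The share of clusters called at a limma Benjamini-Hochberg adjusted p under 0.05 gives the background for these counts. For ob/ob vehicle against wild type, 2.96% of all clusters were called, and 2 of the 9 genes were (*Apoa4* higher, *Apom* lower). Because the *Apoa4* difference was known when the list was made, nothing is read from this count or from that for extract against wild type. For ob/ob extract against wild type, 1.29% of clusters were called and the same 2 genes, *Apoa4* and *Apom*, were. For ob/ob extract against ob/ob vehicle the share called was 0%, with a smallest adjusted p of 0.593 over all clusters. The design text instead called genes at an unadjusted p under 0.05 if they also changed more than 1.1-fold. By that criterion the shares of all clusters were 6.45% for extract against ob/ob vehicle, 17% for ob/ob vehicle against wild type and 14% for extract against wild type. Of the 9 genes, among them *Apoa2* and *Apoe*, which could show no difference, it took 0, 4 and 4 in these comparisons. The 4 were *Apoa4*, *Apoc3*, *Apoa1* and *Apom* in both comparisons with wild type. The ob/ob vehicle arrays enter both of the first 2 comparisons and the wild-type arrays both of those with wild type, so these counts are not independent of each other.

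**Figure D1:**
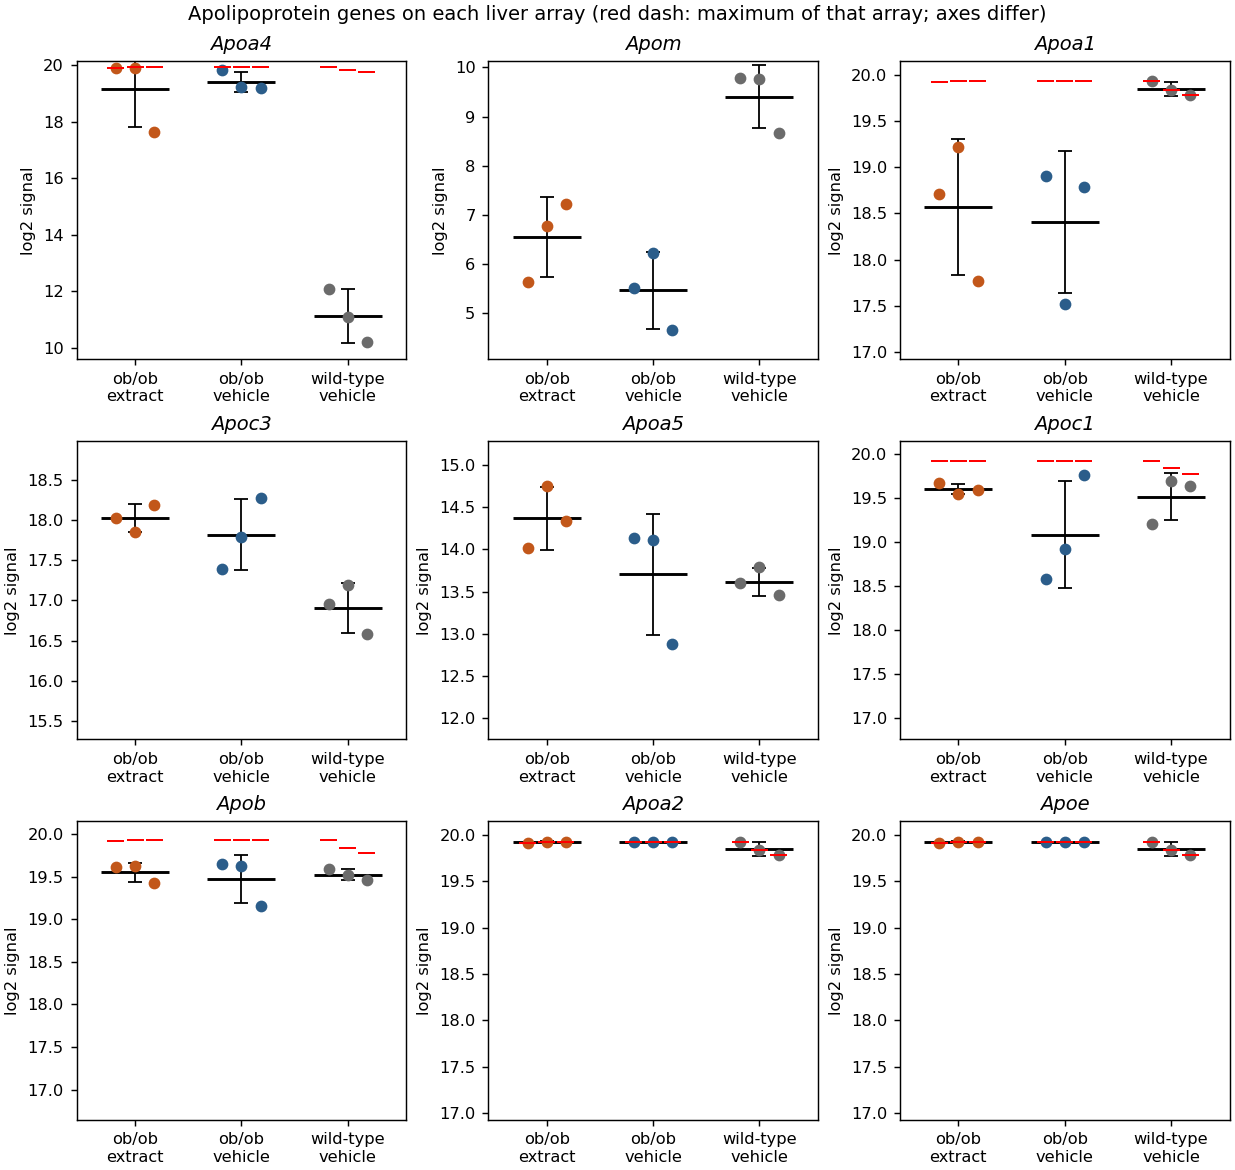
Log2 signal (y axis, scaled separately for each gene) of the 9 measured apolipoprotein genes on each array, for ob/ob extract, ob/ob vehicle and wild-type vehicle mice from left to right. Points are arrays 1 to 3 of each group, black lines the mean, bars the SD and red dashes the maximum of that array; *Apoa4* is near the ceiling in both ob/ob groups and at 10.19 to 12.08 in wild type, and *Apom* is the reverse case, with wild type highest.

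*Apob* encodes the non-exchangeable protein on which the hepatocyte builds very low density lipoprotein. Its signal was 19.61, 19.62 and 19.42 in ob/ob extract liver, against 19.65, 19.62 and 19.15 in ob/ob vehicle liver and 19.59, 19.52 and 19.46 in wild-type liver. The 3 groups overlapped, and ob/ob vehicle array 3 was the lowest of the 9. The difference was 0.08 ± 0.23 (SE; 95% interval −0.43 to 0.59, adjusted p = 0.973 from limma) for extract against ob/ob vehicle. For ob/ob vehicle against wild type it was −0.05 ± 0.23 (interval −0.56 to 0.46, adjusted p = 0.943 from limma), and the sign of both turned under some other settings, among them array medians and quantile normalization for ob/ob vehicle against wild type. These levels lie just under the ceiling, where the scale has little room upward.

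*Apoa1* encodes the main structural protein of HDL and the activator of LCAT, the enzyme that esterifies HDL cholesterol. Its signal was 18.71, 19.22 and 17.77 in ob/ob extract liver, 18.91, 17.52 and 18.79 in ob/ob vehicle liver, and 19.93, 19.84 and 19.78 in wild-type liver. All 3 wild-type values are the maximum of their array and therefore lower bounds, and all 6 ob/ob values lie below them. *Apoa1* was thus at least 2.72-fold lower in ob/ob vehicle liver (18.41 ± 0.77, against 19.85 ± 0.08 in wild type; SD, n = 3 each), with a limma adjusted p of 0.114. In extract liver (18.57 ± 0.74) it was at least 2.43-fold lower than in wild type, with a limma adjusted p of 0.212. The wild-type SD of 0.08 is that of the array maxima and not the spread of *Apoa1* between mice. The limma p-values for *Apoa1* therefore rest on a spread cut off at the ceiling. Of the hepatocyte markers below the ceiling, *Fgb* averaged 17.94 on the ob/ob vehicle arrays and 18.94 on wild-type arrays (limma adjusted p = 0.111). *Cps1* averaged 17.49 on the ob/ob vehicle arrays and 18.43 on wild-type arrays (limma adjusted p = 0.293). Both met the design text's criterion but did not pass limma's adjusted threshold. *Asgr1* averaged 14.77 on the ob/ob vehicle arrays and 14.73 on wild-type arrays (limma adjusted p = 0.969). *Hnf4a* averaged 11.15 and 11.71 on the same arrays (limma adjusted p = 0.695). *Asgr1* and *Hnf4a* had overlapping groups and met neither criterion. The part of these markers in the *Apoa1* values was not tested. Without both arrays that stood apart the *Apoa1* difference in ob/ob vehicle was −1.67 (adjusted p = 0.0647), and with limma's array weights it was −1.81 and passed (adjusted p = 0.032). Extract and ob/ob vehicle differed by 0.16 ± 0.43 (SE; interval −0.80 to 1.12, adjusted p = 0.969 from limma).

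*Apoa2*, a second major HDL protein, read 19.92, 19.93 and 19.93 in ob/ob extract liver, 19.93 on each ob/ob vehicle array, and 19.93, 19.84 and 19.78 in wild-type liver. Each of these is the maximum of its array. The same 9 values were found for *Apoe* and the other clusters at the ceiling on every array, among them the albumin gene *Alb*, so no difference can be read from *Apoa2*. Its level in each group is known only as a lower bound.

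*Apom* encodes a lipocalin that rides on HDL and carries the signalling lipid sphingosine 1-phosphate. Its signal was 5.64, 6.77 and 7.23 in ob/ob extract liver, 5.51, 6.23 and 4.66 in ob/ob vehicle liver, and 9.78, 9.77 and 8.67 in wild-type liver. The 6 ob/ob values lie below the 3 wild-type values, and the extract and ob/ob vehicle groups overlap. In whole liver, less RNA per hepatocyte and fewer cells that express the gene cannot be told apart. *Apom* fell by 3.94 ± 0.51 log2 units in ob/ob vehicle against wild-type liver (SE; 15.3-fold, interval −5.06 to −2.82, adjusted p = 0.00397 from limma), with means of 5.47 ± 0.79 for the ob/ob vehicle livers and 9.41 ± 0.64 for wild-type livers (SD, n = 3 each). Without both arrays that stood apart the difference was −3.90 (adjusted p = 0.000713).

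*Apom* in ob/ob liver was also close to the range of silent genes. On ob/ob vehicle array 3 it was at 4.66, under the 6.44 that bounded the olfactory receptors there, and on array 1 at 5.51, against 5.35. The size of its fold change therefore depends on a level near background. Against wild type, *Apom* in extract liver fell by 2.86 ± 0.51 (SE; 7.26-fold, interval −3.98 to −1.74, adjusted p = 0.0254 from limma). This call was lost without extract array 1, extract array 2, wild-type array 1 or wild-type array 2, when the adjusted p reached 0.123 at most and the difference was −3.23 to −2.41 over all left-out arrays. Extract liver was 1.08 ± 0.51 above ob/ob vehicle liver (SE; interval −0.04 to 2.20), which did not pass (adjusted p = 0.77 from limma). That difference was 0.68 without ob/ob vehicle array 3.

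*Apoa4* encodes an exchangeable apolipoprotein of chylomicrons and HDL that is made mainly by the small intestine and, in mice, also by the liver. Its signal was 19.92, 19.89 and 17.63 in ob/ob extract liver, 19.83, 19.23 and 19.21 in ob/ob vehicle liver, and 12.08, 11.09 and 10.19 in wild-type liver. Every ob/ob value was more than 5 log2 units above every wild-type value, and extract array 1 was at the ceiling. Extract array 3 was the lowest of the 6 ob/ob arrays. The means were 19.15 ± 1.31 with extract, 19.42 ± 0.35 with vehicle and 11.12 ± 0.95 in wild type (SD, n = 3 each). As a description, ob/ob vehicle liver was 8.30 ± 0.63 log2 units (SE; 316-fold) above wild type and extract liver 8.03 ± 0.63 (261-fold). Leaving out the pair of arrays that stood apart gave 7.94 and 7.56. The *Apoa4* fold in extract liver may be understated, since array 1 met the ceiling.

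The extract and ob/ob vehicle groups overlapped for *Apoa4*. Their difference was −0.28 ± 0.63 (SE; interval −1.66 to 1.11, adjusted p = 0.962 from limma), and it ran from −0.66 to 0.48 when single arrays were left out. It was 0.48 without extract array 3. The ob/ob values other than that of extract array 3 lie near the ceiling, so a rise with the extract could hardly be seen.

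Because *Apoa4* is an intestinal gene, markers of enterocytes were set beside it. Of 8 enterocyte markers, *Vil1*, *Lct*, *Sis*, *Alpi* and *Cdx2* were under the olfactory receptor upper end on all 9 arrays. The list averaged 6.23 to 6.69 on extract arrays, 6.12 to 6.59 on ob/ob vehicle arrays and 6.09 to 6.23 on wild-type arrays. *Treh*, the brush border trehalase, rose by 1.89 in ob/ob vehicle against wild type (adjusted p = 0.0111 from limma) and by 1.72 in extract against wild type (adjusted p = 0.023 from limma). The first call was lost without ob/ob vehicle array 1 or wild-type array 2, and the second without array 1 or 2 of either of its groups (adjusted p up to 0.0619 and 0.106). *Treh* was at 5.26, 5.36 and 5.73 in wild-type liver, under the olfactory receptor upper end on all 3 arrays. The size of its rise therefore depends on a level near background. *Fabp2*, a fatty acid binding protein of enterocytes, was at 16.08, 15.94 and 13.91 in extract liver, 14.39, 14.55 and 16.57 in ob/ob vehicle liver, and 12.94, 13.15 and 13.63 in wild-type liver, and did not pass (1.93 for ob/ob vehicle against wild type, adjusted p = 0.159 from limma). All 6 ob/ob values of *Fabp2* lie above the 3 wild-type values. The design text's criterion took 2 of the 8 markers, *Fabp2* and *Treh*, both higher, for ob/ob vehicle against wild type, beside 17% of all clusters. In that comparison 6 of the 8 had a negative difference. For extract against wild type it also took 2 of the 8, both higher, beside 14% of all clusters. *Cdx1* had no difference that passed. The part of enterocyte RNA in the *Apoa4* values was not tested.

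Of *Apoc3*, *Apoa5* and *Apoc1*, whose products act on lipoprotein lipase or remnant uptake, 0 were called by limma, and *Apoc3* alone met the design text's criterion, in both comparisons with wild type. *Apoc3* encodes the apolipoprotein that inhibits lipoprotein lipase and slows uptake of remnants. Its signal was 18.03, 17.85 and 18.19 in ob/ob extract liver, 17.39, 17.79 and 18.27 in ob/ob vehicle liver, and 16.95, 17.19 and 16.58 in wild-type liver. All 6 ob/ob values lie above the 3 wild-type values, and the ob/ob groups overlap. *Apoc3* was 0.91 ± 0.29 higher in ob/ob vehicle than in wild-type liver (SE; 1.88-fold, interval 0.28 to 1.54) and 1.12 ± 0.29 higher in extract than in wild-type liver (2.17-fold, interval 0.48 to 1.75). The limma adjusted p values were 0.129 and 0.106, so neither passed. The ob/ob vehicle difference was 0.52 without both arrays that stood apart (adjusted p = 0.301). The extract difference against wild type was then 0.95 and did not pass (adjusted p = 0.0775 from limma). It passed in 1 of 19 alternatives, without ob/ob vehicle array 3 (adjusted p = 0.0455). That array is in neither group of this comparison, so the difference stayed at 1.12 while the shared estimate of the spread changed. Extract and ob/ob vehicle differed by 0.21 ± 0.29 (SE; interval −0.43 to 0.84, adjusted p = 0.925 from limma).

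*Apoa5* encodes a scarce plasma apolipoprotein that promotes triglyceride removal by lipoprotein lipase. Its signal was 14.01, 14.75 and 14.34 in ob/ob extract liver, 14.13, 14.11 and 12.88 in ob/ob vehicle liver, and 13.60, 13.79 and 13.46 in wild-type liver. The 3 extract values lie above the 3 wild-type values, while ob/ob vehicle spans both, with array 3 the lowest of the 9. Extract liver was 0.75 ± 0.36 above wild-type liver (SE; interval −0.04 to 1.54, adjusted p = 0.384) and 0.66 ± 0.36 above ob/ob vehicle liver (interval −0.13 to 1.45, adjusted p = 0.8), and neither passed limma's test. The second of these was 0.25 without ob/ob vehicle array 3. Ob/ob vehicle and wild-type liver differed by 0.09 ± 0.36 (SE; adjusted p = 0.933 from limma), a sign that turned under quantile normalization.

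*Apoc1* encodes a small apolipoprotein known to hinder lipase action and receptor uptake. Its signal was 19.67, 19.55 and 19.60 in ob/ob extract liver, 18.58, 18.92 and 19.76 in ob/ob vehicle liver, and 19.21, 19.70 and 19.64 in wild-type liver. The groups overlap, since ob/ob vehicle held both the lowest and the highest of the 9 values. Most of these levels lie just under the ceiling, where the scale has little room upward. Extract liver was 0.52 ± 0.31 above ob/ob vehicle liver (SE; interval −0.17 to 1.21, adjusted p = 0.826 from limma), and 0.86 without ob/ob vehicle array 3 (adjusted p = 0.234). Ob/ob vehicle liver differed from wild type by −0.43 ± 0.31 (SE; interval −1.12 to 0.26, adjusted p = 0.542 from limma) and by −0.77 without that array (adjusted p = 0.111). *Apoc2*, the cofactor that lipoprotein lipase requires, was not analysed here. *Apoe*, the ligand through which hepatic receptors recognise remnants, sat at the maximum of each array, like *Apoa2*, and gave no readable difference.

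Array 3 of the ob/ob vehicle group was thus not uniformly low. Within its group it held the lowest *Apoa4*, *Apoa5*, *Apob* and *Apom* and the highest *Apoc1* and *Apoc3*. How much of the array's distance from its group bears on these genes was not tested.

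**Figure D2:**
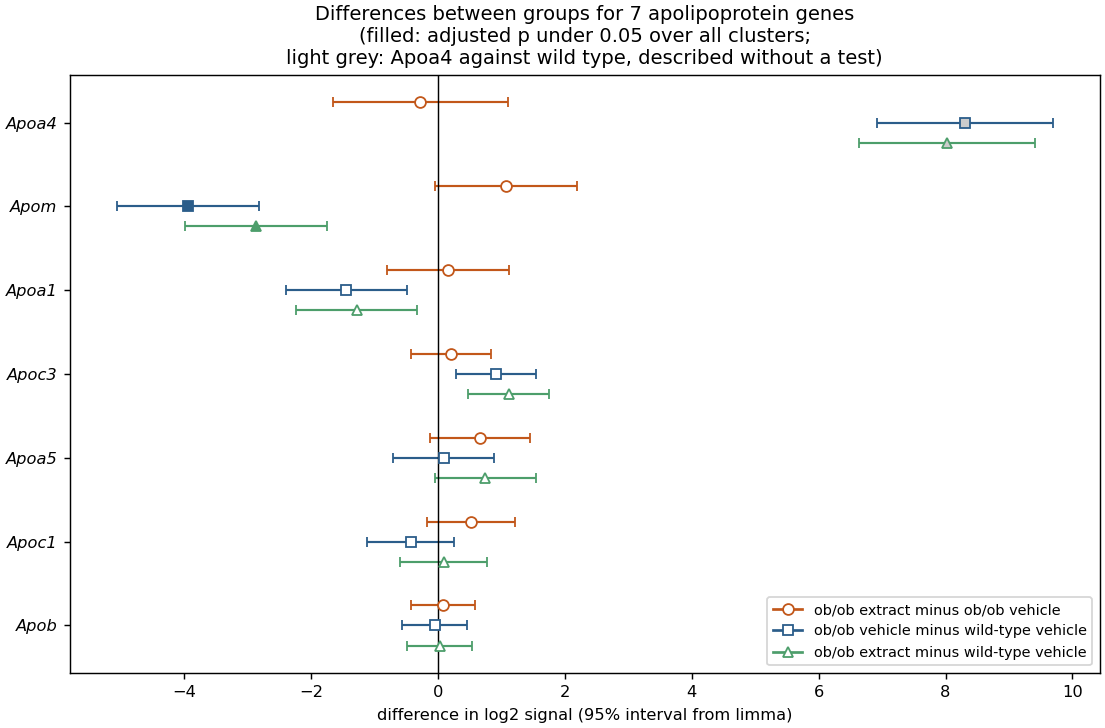
Differences in log2 signal (x axis) with 95% intervals from limma for the 7 apolipoprotein genes below the ceiling on at least 1 array, 1 row per gene. Circles are ob/ob extract minus ob/ob vehicle, squares ob/ob vehicle minus wild-type vehicle and triangles ob/ob extract minus wild-type vehicle; the filled symbols, those of *Apom* against wild type, have an adjusted p under 0.05, light grey marks *Apoa4* against wild type, described without a test, and the *Apoa1* differences against wild type are bounds that may lie further left.

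*Apoa1* and 3 other genes of the list lie side by side on chromosome 9 in the order *Apoa1*, *Apoc3*, *Apoa4*, *Apoa5*, by the RefSeq gene table for GRCm38.p6. Along this cluster the ob/ob vehicle minus wild-type differences were −1.44 or lower, 0.91, 8.30 and 0.09, so that *Apoa4* stood between *Apoc3* and *Apoa5*, which were not called. The 6 nearest measured protein-coding genes outside the cluster differed by −1.54 (*Zpr1*) to 1.55 (*Sidt2*), genes named after their values were seen, and 0 of the 6 were called by limma, with 2 at an unadjusted p under 0.05. Around *Apom* on chromosome 17 the 6 nearest measured genes differed by −0.33 to 0.75, and 0 were called or had an unadjusted p under 0.05. Over the 5 places in the genome that hold the list, 1 of 30 neighbours was called, *Ubxn2a* beside *Apob* (1.58, adjusted p = 0.0449 from limma), named here after its values were seen. That call was lost without any 1 of 7 of the 9 arrays, and held without ob/ob vehicle array 3 or wild-type array 1. Of the 30 neighbours 4 had an unadjusted p under 0.05. Over all 22206 clusters 2.96% were called by limma and 3771 had an unadjusted p under 0.05. Nothing about these places in the genome is read from the neighbour counts.

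**Figure D3:**
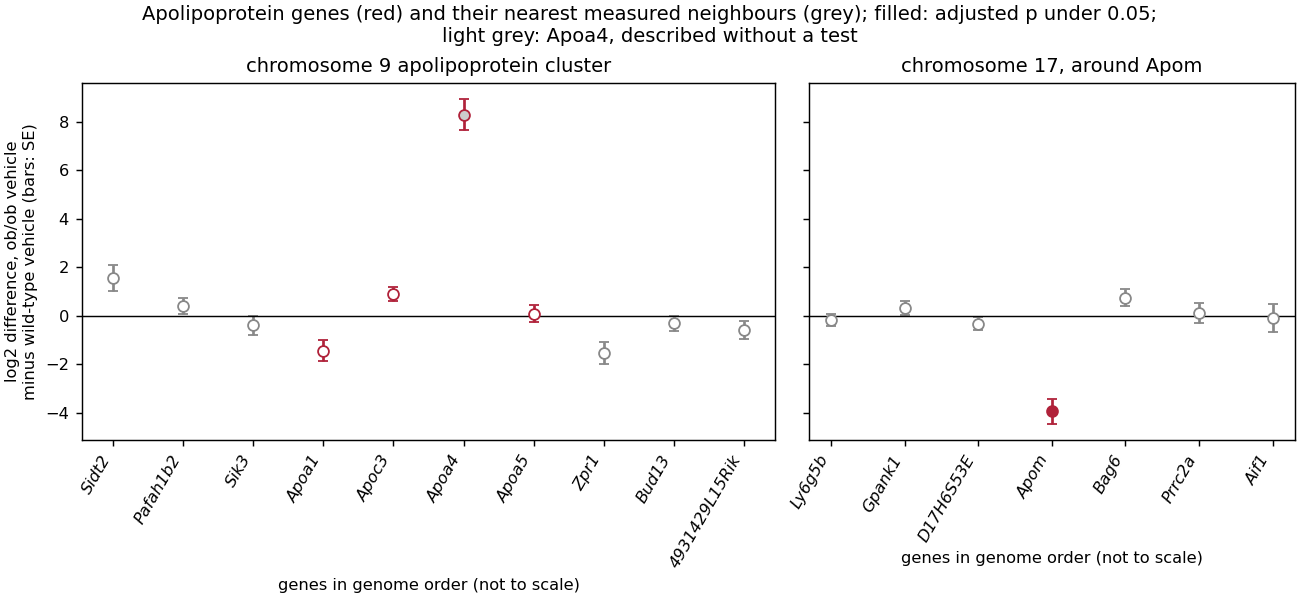
Differences in log2 signal between ob/ob vehicle and wild-type vehicle liver (y axis, bars SE from limma) for the apolipoprotein genes (red) and their 3 nearest measured neighbours on each side (grey), in genome order and not to scale. *Apom* at −3.94 is filled, with an adjusted p under 0.05, and *Apoa4* at 8.30 is light grey, described without a test; the neighbours lie between −1.54 and 1.55, and *Apoa1* is a bound.

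The 5 genes whose 9 values followed *Apoa4* most closely by Pearson's correlation were *Cyp2b9* (r = 0.986), *Aldh1a1* (0.985), *Cyp2a22* (0.981), *Mogat1* (0.980) and *Plekha8* (0.978). These correlations run over 9 arrays in 3 groups, so the difference between ob/ob and wild-type mice is part of each of them. *Mogat1*, a monoacylglycerol acyltransferase of triglyceride synthesis, was 3.17 log2 units higher in ob/ob vehicle than in wild-type liver, and *Aldh1a1*, a retinal dehydrogenase, 2.02. With the extract these genes differed from ob/ob vehicle by −0.36 and −0.03.

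The wider lipoprotein pathway was followed in 6 lists with 81 genes, of which 68 were measured. For ob/ob vehicle against wild type 2 of the 68 were called, *P4hb* higher and *Mlxipl* lower, a share of 2.94% beside 2.96% over all clusters. The median difference of the 68 was 0.18, with −0.06 over all clusters. For extract against wild type 3 of 68 were called, *P4hb* and *Foxo1* higher and *Nr1d1* lower, a share of 4.41% beside 1.29% over all clusters, with a median of 0.08 beside −0.05. For extract against ob/ob vehicle 0 of 68 were called by limma, 7 met the design text's criterion, beside 6.45% of all clusters, and the median was −0.01.

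Particle assembly, the loading of triglyceride onto apolipoprotein B and its export from the endoplasmic reticulum, had 13 measured genes with a median of 0.71 in ob/ob vehicle against wild type, 1 of them called. *P4hb*, the disulfide isomerase subunit of the microsomal triglyceride transfer protein, was at 16.15, 16.17 and 15.91 in extract liver, 15.32, 15.27 and 16.19 in ob/ob vehicle liver and 14.60, 13.79 and 14.27 in wild-type liver. All 6 ob/ob values lie above the wild-type values. It rose by 1.37 in ob/ob vehicle (adjusted p = 0.0463) and by 1.86 in extract (adjusted p = 0.0195) against wild type by limma. The first of these calls was lost with the replicate number as a block (adjusted p = 0.0633) and without both arrays that stood apart (1.10, adjusted p = 0.053). Of the 9 arrays left out in turn, it held without ob/ob vehicle array 3 or wild-type array 1 and was lost without any other. The extract call was lost without wild-type array 2 or 3 or any extract array. *Mttp*, the gene of the transfer protein's other subunit and named outside the rule, was not called against wild type. It differed by 0.97 in ob/ob vehicle (adjusted p = 0.316) and 1.39 in extract (adjusted p = 0.203) against wild type by limma. *Mia2*, a cargo factor for large particles, differed by 1.29 in ob/ob vehicle (adjusted p = 0.096) and 0.89 in extract (adjusted p = 0.307) against wild type by limma. *Pla2g12b*, needed in mice for lipid loading of the particle, had the smallest p of the list for extract against ob/ob vehicle, at −0.77 (adjusted p = 0.767 from limma).

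The transcriptional regulators had 15 measured genes with a median of 0.18 for ob/ob vehicle against wild type. *Mlxipl*, the glucose-responsive factor ChREBP, was at 12.18, 11.91 and 11.36 in extract liver, 11.76, 12.23 and 9.65 in ob/ob vehicle liver and 13.43, 15.09 and 15.16 in wild-type liver. All ob/ob values lie below the wild-type values. It fell by 3.35 in ob/ob vehicle against wild type (adjusted p = 0.0267 from limma; −2.27 and 0.0148 with both outlying arrays left out). This call was lost without extract array 2, ob/ob vehicle array 1, or wild-type array 2 or 3. In extract liver it was at −2.74 against wild type (adjusted p = 0.0845). *Rora*, a nuclear receptor, differed by 1.05 in ob/ob vehicle (adjusted p = 0.229) and 0.82 in extract (adjusted p = 0.419) against wild type by limma. *Hnf4a*, named outside the rule because its motif is marked above, had means of 11.13 ± 0.45 with extract, 11.15 ± 1.37 with vehicle and 11.71 ± 0.56 in wild type (SD, n = 3 each) and was not called, except for ob/ob vehicle against wild type with each array's interquartile range as a covariate.

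*Nr1d1*, the clock repressor REV-ERBα, known to repress *Apoc3*, had the smallest p of the regulators for extract against ob/ob vehicle. It was at 6.46, 6.65 and 5.74 in extract liver, against 9.16, 8.44 and 8.55 in ob/ob vehicle liver and 9.30, 9.15 and 10.51 in wild-type liver. The extract values lie below all others. The difference from ob/ob vehicle was −2.43 ± 0.40 (SE; adjusted p = 0.593 from limma), and −2.52 with an adjusted p of 0.00693 without both arrays that stood apart. Without ob/ob vehicle array 3 alone *Nr1d1* was also at −2.52 but did not pass (adjusted p = 0.0551 from limma). Against wild type it fell by 3.37 in extract liver (adjusted p = 0.00307 from limma), while *Foxo1*, a factor held in check by insulin, rose by 1.53 (adjusted p = 0.0432 from limma). The *Nr1d1* call held without each of the 9 arrays in turn. That of *Foxo1* was lost with the replicate block (adjusted p = 0.0606) and held, of the 9 arrays left out in turn, without ob/ob vehicle array 3 or wild-type array 1. These last values were chosen after they were seen.

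**Figure D4:**
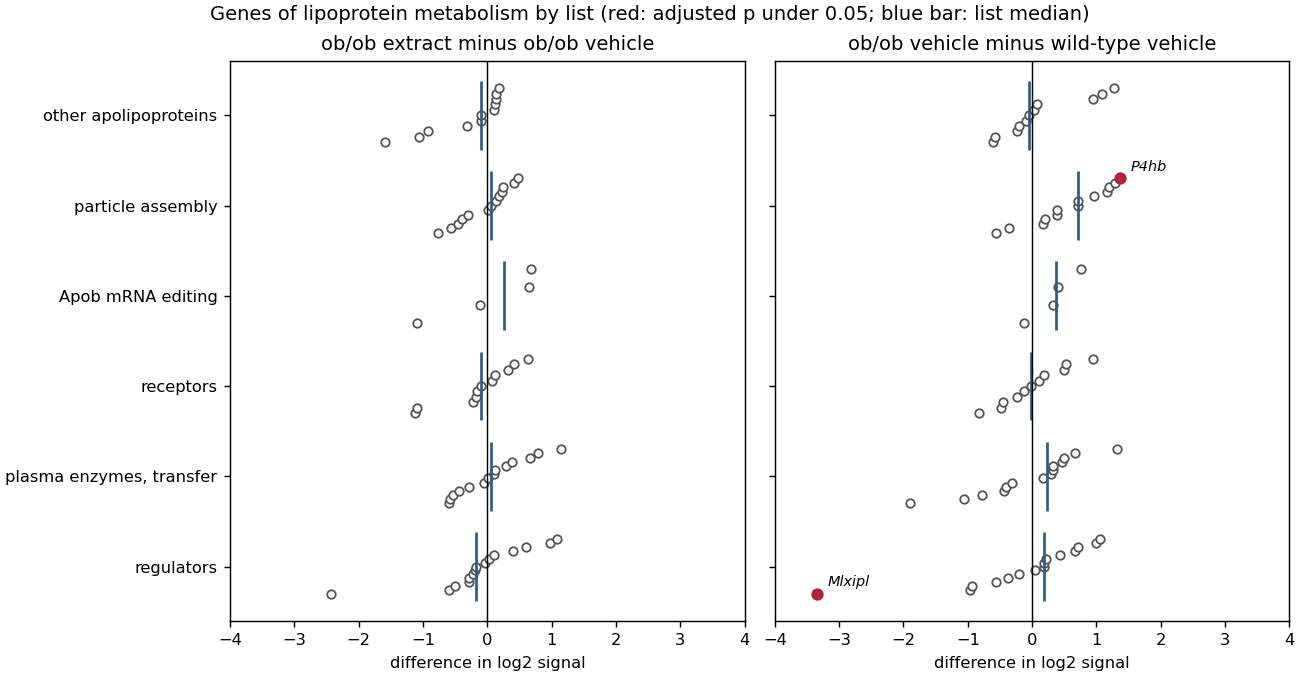
Differences in log2 signal (x axis) of the measured genes of 6 lists of lipoprotein metabolism (rows), for ob/ob extract minus ob/ob vehicle on the left and ob/ob vehicle minus wild-type vehicle on the right. Each point is 1 gene, blue bars are list medians and red points, *P4hb* and *Mlxipl*, have an adjusted p under 0.05; 0 points are red on the left.

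The other lists had 0 genes called by limma in each of the 3 comparisons. By the design text's criterion, which took 17% of all clusters for ob/ob vehicle against wild type, 2 of 11 minor apolipoproteins, 0 of 4 editing genes, 2 of 11 receptors and 1 of 14 plasma proteins were taken. For extract against wild type, where it took 14% of all clusters, these counts were 3, 1, 5 and 1, the 5 receptors being *Sdc1* and *Vldlr*, higher, and *Lrp1*, *Lsr* and *Stab1*, lower. Among 11 measured minor apolipoproteins the median was −0.05 for ob/ob vehicle against wild type. *Apool*, a mitochondrial cristae protein of the apolipoprotein O family, differed by 0.95 in ob/ob vehicle (adjusted p = 0.08) and 1.06 in extract (adjusted p = 0.0851) against wild type by limma. *Saa4*, an HDL apolipoprotein of the serum amyloid A family, differed by 1.28 in ob/ob vehicle (adjusted p = 0.245) and −0.31 in extract (adjusted p = 0.829) against wild type by limma, and by −1.59 in extract against ob/ob vehicle (adjusted p = 0.741).

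Editing of *Apob* mRNA, which shortens the protein and in mice takes place in liver as well as gut, had 4 measured genes with a median of 0.36 for ob/ob vehicle against wild type. *Apobec1*, the deaminase, was at 8.61, 8.52 and 7.84 in extract liver, 9.88, 9.68 and 8.68 in ob/ob vehicle liver and 8.88, 8.60 and 8.47 in wild-type liver. Its 3 extract values lie below the 3 ob/ob vehicle values. The difference was −1.09 (adjusted p = 0.741 from limma) and passed without both arrays that stood apart (−1.46, adjusted p = 0.0337). Without ob/ob vehicle array 3 alone it was also −1.46 but did not pass (adjusted p = 0.0881 from limma). Against wild type *Apobec1* differed by 0.76 in ob/ob vehicle (adjusted p = 0.301) and *Syncrip*, an RNA-binding partner, by 0.32 (adjusted p = 0.655), both by limma. Without ob/ob vehicle array 3 the *Apobec1* difference was 1.13 and passed (adjusted p = 0.0471). Without both arrays that stood apart this difference was 1.04 and did not pass (adjusted p = 0.0709 from limma).

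Receptors and clearance had 11 measured genes with a median of −0.01 for ob/ob vehicle against wild type. *Sdc1*, the heparan sulfate proteoglycan that takes up remnants, differed by 0.95 (adjusted p = 0.161) and the endothelial scavenger receptor *Stab2* by −0.82 (adjusted p = 0.257) by limma. *Lsr*, the lipolysis-stimulated receptor, was at −1.12 in extract against ob/ob vehicle (adjusted p = 0.741 from limma), and passed without both arrays that stood apart (−1.43, adjusted p = 0.0487). Without ob/ob vehicle array 3 alone *Lsr* was also at −1.43 but did not pass (adjusted p = 0.152 from limma). Plasma enzymes and transfer proteins had 14 measured genes with a median of 0.23. *Bmp1*, the protease that matures apolipoprotein A-I, differed by −1.06 (adjusted p = 0.252) and *Abca1*, the exporter that loads HDL with lipid, by −0.43 (adjusted p = 0.398) for ob/ob vehicle against wild type by limma. *Angptl4*, an inhibitor of lipoprotein lipase, was at 1.14 in extract against ob/ob vehicle (adjusted p = 0.76 from limma).

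Markers of Kupffer cells, the liver macrophages, were set beside the extract comparison. The 10 markers, with *Cd5l*, *Csf1r* and *C1qc* the highest, averaged 5.65 to 6.66 on extract arrays, 6.88 to 7.04 on ob/ob vehicle arrays and 6.26 to 6.91 on wild-type arrays. Of the 10, 0 were called by limma in extract against ob/ob vehicle and 4 met the design text's criterion (*Cd5l*, *C1qb*, *Adgre1* and *C1qc*, all 4 lower), which took 6.45% of all clusters. Their part in the extract values above was not tested.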

How the data were processed

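Liver RNA of 9 mice was measured on 9 arrays in 3 groups of 3. The authors deposited log2 values, rounded to 2 decimals, for 22206 transcript clusters; per the submitters' processing notes and the design text the software was Transcriptome Analysis Console 4.0.2 and the normalization SST-RMA, whose transformation counters compressed fold changes. The array's genome build is not given in the sources used here, and detection calls were not used here. Columns of other samples numbered 0. Symbols came from GEO's platform annotation.

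limma 3.58.1 (R 4.3.3) compared the groups, with 1 mean per group over all 9 arrays, eBayes and Benjamini-Hochberg adjustment over all clusters, and calls at an adjusted p under 0.05. The fit was tested on simulated data. Named were all the apolipoprotein genes, and from each pathway list up to 4 called genes for ob/ob vehicle against wild type, or 2 by smallest p, and the 1 of smallest p for extract against ob/ob vehicle, plus the 5 genes most like *Apoa4*. Of each marker list up to 3 genes were named by highest mean. Outside this rule, and after their values were seen, genes are named that make up a count of 5 or fewer, that are set beside an apolipoprotein gene as marker, neighbour or motif factor, or that are most like *Apom*. *Mttp* is also named outside this rule, beside *P4hb*. The genes and lists were chosen with earlier results of these data known.

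Replicate numbers are shared by the groups. Deviations of same-numbered ob/ob vehicle and wild-type arrays correlated at 0.256, 0.262 and 0.450, which meets the rule of over 0.1 for pairing there, although the labels do not say what a number marks. The value of 0.450 belongs to the arrays numbered 3, both of which stood apart. Between extract and ob/ob vehicle they were −0.130, 0.016 and −0.106. Alternatives were the replicate block, quantile normalization, array medians, filters on low values, fits of only 2 groups, array weights, an eBayes trend, the interquartile range as a covariate, and arrays left out. Precision is limited by having 3 mice in a group.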

Additional observations from a re-analysis of the deposited data

How the results depend on the processing

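The 66 differences of named genes were recomputed under 10 other settings and without each of the 9 arrays, giving 1254 values, of which 1147 kept their direction and their side of the threshold, 63 lost a call, 19 gained one and 25 turned round. *Apom* against wild type stayed called in 19 of 19 alternatives for ob/ob vehicle and 15 of 19 for extract. The replicate block left the called apolipoprotein genes at 2 in both comparisons with wild type and 0 for extract against ob/ob vehicle, and the pathway calls at 1 for ob/ob vehicle against wild type, with *P4hb* lost, and at 2 for extract against wild type, with *Foxo1* lost (adjusted p = 0.0606). By the design text's criterion 4 apolipoprotein genes were called in each comparison with wild type, against 2 by adjusted p. Array weights gave 3 for ob/ob vehicle, and leaving out single arrays 1 to 3 for extract. *Apoa4* is part of each of these apolipoprotein counts against wild type. Its difference was known when the genes were chosen, so nothing is read from its part in them. Pathway calls for extract against ob/ob vehicle, 0 in all, were 2 with array weights and 5 without both arrays that stood apart. For extract against wild type, 3 in all, they were 8 with array weights, 8 without both arrays and 1 to 5 without single arrays. For ob/ob vehicle against wild type, 2 in all, they were 8 with array weights, 7 without both arrays, 1 with an eBayes trend, 5 with the interquartile range, 0 with only 2 groups, 1 with quantile normalization, 1 with the block and 0 to 6 without single arrays. Over all clusters, array weights called 106, 2137 and 796 for extract against ob/ob vehicle, ob/ob vehicle against wild type and extract against wild type, and leaving out both arrays 360, 1745 and 595, against 0, 658 and 287. A fit of only 2 groups called 207 for ob/ob vehicle against wild type. Subtracting array medians moved the median of all clusters from −0.06 to 0.06 for ob/ob vehicle and from −0.05 to 0.09 for extract, both against wild type. Quantile normalization put 290 of 546 ob/ob vehicle calls higher, against 507 of 658, and 153 of 250 extract calls against wild type, against 217 of 287. Some values that turned round were larger in size than the main difference, so the signs of the differences listed next are not settled. *Apoa5* for ob/ob vehicle against wild type was −0.49 with the interquartile range and −0.37 with quantile normalization. *Apob* was −0.04 with array weights and −0.08 without both arrays for extract against ob/ob vehicle, −0.14 with the interquartile range for extract against wild type, and 0.07 with array medians, 0.06 with array weights, 0.08 without both arrays and 0.19 with quantile normalization for ob/ob vehicle against wild type. *Apoc1* was 0.05 with the interquartile range for ob/ob vehicle against wild type. *Syncrip* was −0.13 with quantile normalization for extract against wild type, and −0.08 without both arrays and −0.16 with quantile normalization for ob/ob vehicle. Without single arrays, extract against ob/ob vehicle ran from −0.28 to 0.56 for *Apoa1*, −0.66 to 0.48 for *Apoa4*, −0.08 to 0.17 for *Apob* and −0.01 to 0.43 for *Apoc3*. Extract against wild type ran from −0.01 to 0.09 for *Apob*, −0.06 to 0.18 for *Apoc1*, −0.66 to 0.03 for *Bmp1* and −0.83 to 0.17 for *Saa4*. Ob/ob vehicle against wild type ran from −0.12 to 0.50 for *Apoa5* and −0.14 to 0.11 for *Apob*. The cause of these changes was not tested. The use of another cluster for an apolipoprotein gene was not run, since each had 1. *Rora* had 3, of which that of highest mean was used; chosen after seeing the data, the other two gave 0.84 and −0.25 for ob/ob vehicle against wild type and 0.85 and 0.88 for extract against wild type, none of them called (adjusted p 0.177 to 0.694 from limma). Signal at the ceiling limits *Apoa1*, *Apoa2* and *Apoe*, and *Apoa4* on extract array 1. Levels just under the ceiling limit *Apob* and *Apoc1*, and *Apoa4* in ob/ob liver. Signal near silent genes limits *Apom*.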

Other observations

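The genes whose values followed *Apom* most closely were looked up after the *Apom* values were seen. Over the 9 arrays they were *Ces3b* (Pearson r = 0.988), *Ttc39c* (0.979), *Onecut1* (0.975), *Itpr2* (0.971) and *Serpina1e* (0.965). In ob/ob vehicle against wild-type liver the carboxylesterase gene *Ces3b* fell by 4.22 log2 units (adjusted p = 0.0054 from limma), and *Serpina1e*, a secreted protease inhibitor, fell by 5.72 (adjusted p = 0.00113 from limma). *Onecut1*, the hepatocyte transcription factor HNF6, fell by 3.50 (adjusted p = 0.0246 from limma), a call lost without extract array 2, ob/ob vehicle array 1 or 2, or wild-type array 1 or 2. With the extract the 5 genes differed from ob/ob vehicle by 0.43 to 1.27, all upward like *Apom* at 1.08. They were picked for their likeness to *Apom* over the same 9 arrays. Their falls, adjusted p values and upward differences are therefore a description and add no independent result.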
